A study of Gallus gallus with 4 samples.

Results

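A set of 7 genes of neuroepithelial delamination and apical polarity was followed in chick neural tube cells that had received Hoxb8: LZTS2, RND3, RHOU, PARD3B, NECTIN1, LLGL1 and SCRIB. They are measured genes of the study's question that carry a symbol, and they are not all of its machinery. The study's title puts that question as how HoxB genes control delamination of neurons in the trunk through Lzts1. The members were chosen by symbol and all 7 were found, out of 17108 genes in the authors' deposited table. LZTS1 itself stands in no line of that table under its symbol (0 lines), nor does HOXB8 (0 lines), so neither was analysed here.

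The control group was 2 libraries from embryos that received the plasmid pCIG at 2 µg/µl, and the Hoxb8 group was 2 libraries from embryos that received Hoxb8-pCIG at 1 µg/µl mixed with pCIG at 1 µg/µl. In both groups the trunk neural tube of chick embryos was electroporated in ovo at Hamburger-Hamilton stage 11, dissected 18 hours later and sorted for live cells with green fluorescent protein, which the plasmids carry as a marker of uptake. Hoxb8 was thus added to cells that may express their own Hox genes, and the sort kept transfected cells of every kind in the tissue. The labels name no embryo pool, day or batch, so the p-values rest on these 4 libraries alone, and the spread between them may be technical.

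In the neural tube, cells are joined near the lumen by a belt of adherens junctions, and apical and basolateral protein complexes hold each other to their own side of the cell. A cell committed to become a neuron loosens these junctions, constricts and withdraws its apical end, and leaves the ventricular surface, a step called delamination. Small GTPases set the actomyosin tension for this step, and Lzts1 has been described in mouse and ferret as a junction-associated protein that promotes it. RND3, RHOU and LZTS2 stand for this machinery, NECTIN1 for the junction, and PARD3B, LLGL1 and SCRIB for the polarity complexes.

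Of the 7 genes 1 passed the authors' test as deposited, RND3, which was lower in Hoxb8. In 4 of 9 other settings RND3 did not pass. The other 6 did not pass as deposited, which does not show that they were unchanged. "Called" here means an adjusted p under 0.05 in the authors' two-sided Wald test, with Benjamini-Hochberg adjustment over 12574 genes. At that threshold 15.2 percent of all tested genes were called in the authors' deposited table, 8.72 percent higher and 6.49 percent lower in Hoxb8, so 1 call among 7 members (14.3 percent) is near the background. At an unadjusted p under 0.05 the count was 3 of 7 (42.9 percent: RND3, LZTS2 and PARD3B) against 26.7 percent of all tested genes. Of the 7 log2 fold changes 4 were above 0 and 3 below, with a median of 0.096 against -0.0053 over all tested genes. The members and the genes of the lists below entered by symbol. Of the 1157 tested genes with a symbol 17.8 percent were called and 29.6 percent had an unadjusted p under 0.05. The median log2 fold change of those 1157 genes was 0.035. The absolute changes reached at most 0.38, under the 0.5 that 12.2 percent of all tested genes reached. Values per library were not analysed here, because the table gives 1 mean over the 4 libraries per gene. Levels are therefore shown as that mean, and as the pair of group levels that the mean and the fold change together imply.

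**Figure D1:**
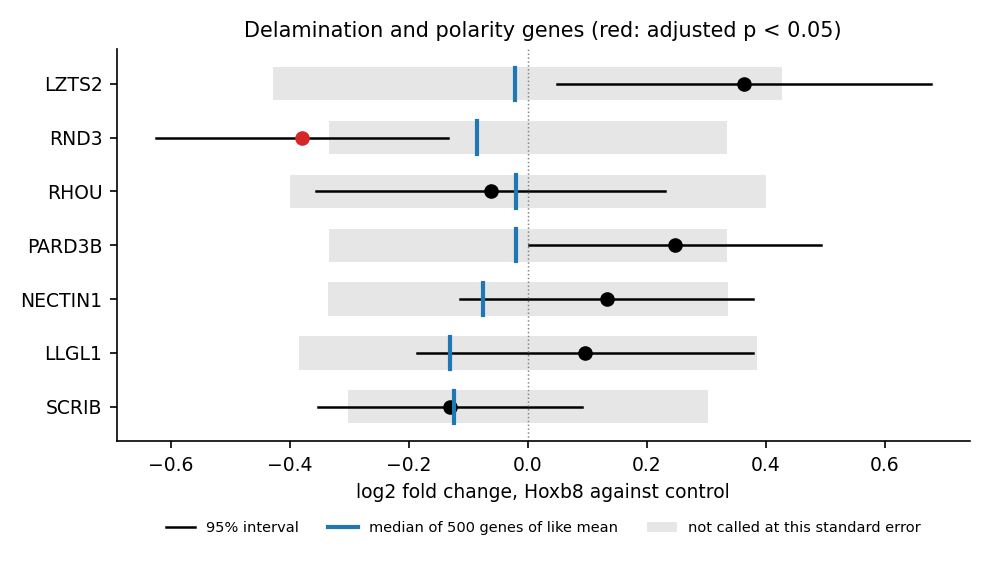
Log2 fold change of the 7 genes in Hoxb8 against control (points, from the authors' deposited table; red, adjusted p under 0.05) with 95% intervals from the deposited standard errors, the median of 500 genes of like mean level (blue ticks), and the range in which a gene with that standard error would not be called (grey). RND3 at -0.38 is the 1 point outside its grey range, and SCRIB lies on its blue tick.

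RND3 (ENSGALG00000026313), is an atypical small GTPase that stays bound to GTP and opposes actomyosin contraction. In the mouse cortex it acts in the migration of newborn neurons. In the authors' deposited table its log2 fold change was -0.38 ± 0.13 (standard error, here and below) with an adjusted p of 0.0209, at a mean of 7696 normalised counts over the 4 libraries. This corresponds to a change of -23.2 percent, with a 95% interval from -35.2 to -8.92 percent, and to implied levels of 8704 normalised counts in control and 6689 in Hoxb8. In bulk RNA, fewer cells of one type and less RNA per cell cannot be told apart. By p, RND3 ranked 1431 of 12574, so 11.4 percent of tested genes had a lower p.

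The fall in RND3 was set beside genes of its own level. The 500 tested genes with the nearest means (7059 to 8368 normalised counts) had a median log2 fold change of -0.085, and 8.6 percent of them lay below RND3. Among these 500, 78 were called (15.6 percent), 22 higher and 56 lower in Hoxb8. After centring on genes of like level, RND3 stood at -0.29 and was no longer called (adjusted p = 0.107, over a range of 0.0190 to 0.632 in all settings tried). Among 166 genes with a symbol and a mean within 1.5 times that of RND3, those nearest to it in the authors' deposited table by log2 fold change were CDV3 (-0.38, adjusted p = 0.0199), RRN3 (-0.39, adjusted p = 0.0365) and PMS2 (-0.36, adjusted p = 0.0287). This likeness rests on 1 comparison of 2 groups. On that centring CDV3 stood at -0.29, RRN3 at -0.36 and PMS2 at -0.29, and none of the 3 was called (adjusted p of 0.109, 0.0641 and 0.119), although the value of RRN3 moved little.

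RHOU (ENSGALG00000025738), also called Wrch1, is a WNT-inducible GTPase related to Cdc42 that exchanges nucleotide rapidly without an activator. Its mean in the authors' deposited table was 2276 normalised counts and its log2 fold change -0.062 ± 0.15 (adjusted p = 0.843), a sign that turned to 0.063 when the median of genes over 10000 normalised counts was set to 0. The implied levels were 2325 normalised counts in control and 2227 in Hoxb8. Its 95% interval ran from -21.8 to 17.4 percent. At its standard error a log2 fold change had to reach 0.40 in size to be called. Among the 500 genes of like level 42 percent lay below it, near the middle.

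LZTS2 (ENSGALG00000023612) is the paralogue of LZTS1 in the table, a leucine zipper protein that in mammalian cells binds the microtubule-severing enzyme katanin and promotes the nuclear export of beta-catenin. It had the highest log2 fold change of the 7 genes in the authors' deposited table, 0.36 ± 0.16, but did not pass (adjusted p = 0.112) at a mean of 4327 normalised counts. The implied levels were 3785 normalised counts in control and 4869 in Hoxb8, a difference of 28.6 percent with a 95% interval from 3.49 to 59.9 percent. Of its 500 genes of like level 95 percent had a lower log2 fold change, around a median of -0.022.

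The precision of LZTS2 was lower than that of genes at its level. Its standard error was 1.22 times the median of the 500 genes of like level, and 95.6 percent of them had a smaller one. At this standard error a log2 fold change had to reach 0.43 in size to be called, whereas RND3, at 1.00 times the median of its own level, needed 0.33. The 3 genes with a symbol nearest to LZTS2 in log2 fold change, among 223 with a mean within 1.5 times its own, were called in the authors' deposited table at smaller standard errors: TSHZ3 (0.38 ± 0.12, adjusted p = 0.0218), CBX2 (0.39 ± 0.13, adjusted p = 0.0247) and PDE7A (0.34 ± 0.12, adjusted p = 0.0420). These 3 genes kept their call when centred on genes of like level. They lost it at an adjusted p under 0.01, and with scores divided by their central spread, a setting described below. With the median of genes over 10000 set to 0, LZTS2 passed at 0.49 (adjusted p = 0.0178, over a range of 0.0178 to 0.859 in all settings tried).

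**Figure D2:**
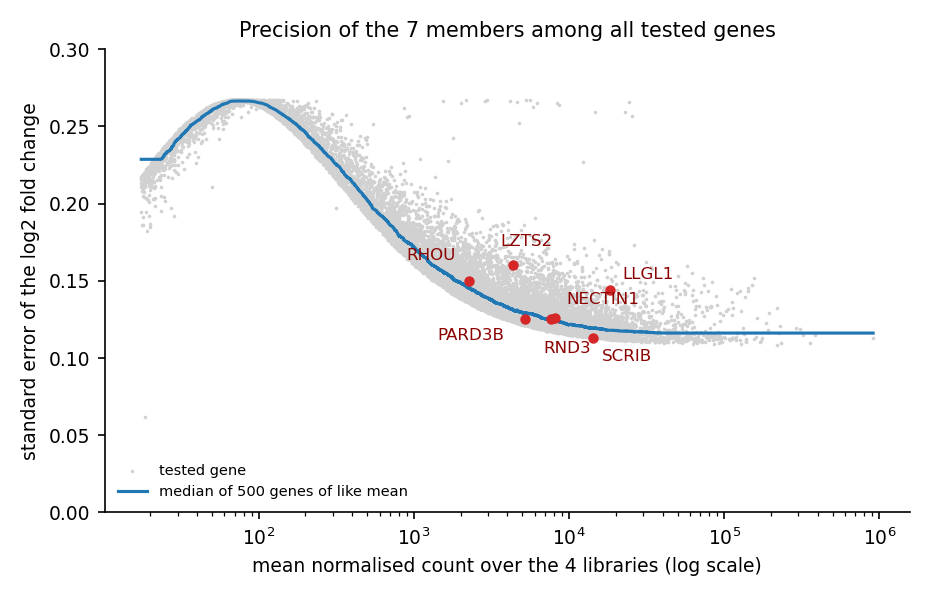
Standard error of the log2 fold change against the mean normalised count over the 4 libraries (log axis) for all 12574 tested genes (grey), with the median of 500 genes of like mean (blue) and the 7 members (red). LZTS2 and LLGL1 lie at 1.22 times the blue line at their level, and SCRIB lies at the lower edge of the cloud.

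The 4 polarity and junction genes held 0 calls in the authors' DESeq2 comparison (against 15.2 percent of all tested genes), and 1 of 4 had an unadjusted p under 0.05 (against 26.7 percent). Counts this small are no result about polarity genes as a group. PARD3B (ENSGALG00000013448) is the paralogue of the apical scaffold PARD3 and, unlike it, does not bind atypical protein kinase C in mammals. In the authors' deposited table it stood at 0.25 ± 0.13 on the log2 scale (unadjusted p = 0.0481, adjusted p = 0.182) at a mean of 5172 normalised counts. Its implied levels were 4730 normalised counts in control and 5614 in Hoxb8, with a 95% interval from 0.147 to 40.7 percent higher. In its 500 genes of like level 88.6 percent lay below it, and it too passed with the median of genes over 10000 set to 0 (0.37, adjusted p = 0.0216, over a range of 0.0216 to 0.917 in all settings tried).

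NECTIN1 (ENSGALG00000006742) is an immunoglobulin-like adhesion molecule of the adherens junction that is tied to actin by afadin. It was listed in the authors' deposited table at 0.13 ± 0.13 on the log2 scale (adjusted p = 0.548) and a mean of 8170 normalised counts. The 95% interval ran from -7.57 to 30.1 percent, around implied levels of 7794 normalised counts in control and 8546 in Hoxb8. Its level is close to that of RND3 in counts and its standard error was 1.01 times the median of like genes, so a log2 fold change of 0.34 in size would have been called. NECTIN1 moved to 0.21 when centred on genes of like level, of which 82.6 percent lay below it, and to 0.26 with the median of genes over 10000 set to 0, and was called in neither.

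LLGL1 and SCRIB belong to the basolateral Scribble module, which restricts the apical complexes. LLGL1 (ENSGALG00000014408), a homologue of fly lethal giant larvae that atypical protein kinase C phosphorylates and displaces, was listed in the authors' deposited table with a mean of 18304 normalised counts and a log2 fold change of 0.096 ± 0.14 (adjusted p = 0.730). SCRIB (ENSGALG00000000075), a scaffold with leucine-rich repeats and PDZ domains whose loss leaves the mouse neural tube open, had a mean of 14280 normalised counts in the authors' deposited table and stood at -0.13 ± 0.11 on the log2 scale (adjusted p = 0.499). Their implied levels in control and Hoxb8 were 17693 and 18915 normalised counts for LLGL1, and 14928 and 13631 for SCRIB.

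The pair differed most in precision and in place among like genes. SCRIB had a standard error of 0.95 times the median at its level, with only 1.6 percent of 500 like genes below it, and a 95% interval from -21.7 to 6.48 percent. LLGL1 had 1.22 times the median at its level, with 95.8 percent of like genes below it, and an interval from -12.1 to 30.0 percent. Both lie where genes as a whole had negative log2 fold changes, with medians of -0.13 around LLGL1 and -0.12 around SCRIB. Against those medians LLGL1 was 0.23 higher on the log2 scale (86.2 percent of like genes lay below it) and SCRIB differed by -0.0065 (48.6 percent lay below it). Neither passed in any setting tried, with the lowest adjusted p at 0.310 for LLGL1 and 0.477 for SCRIB.

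**Figure D3:**
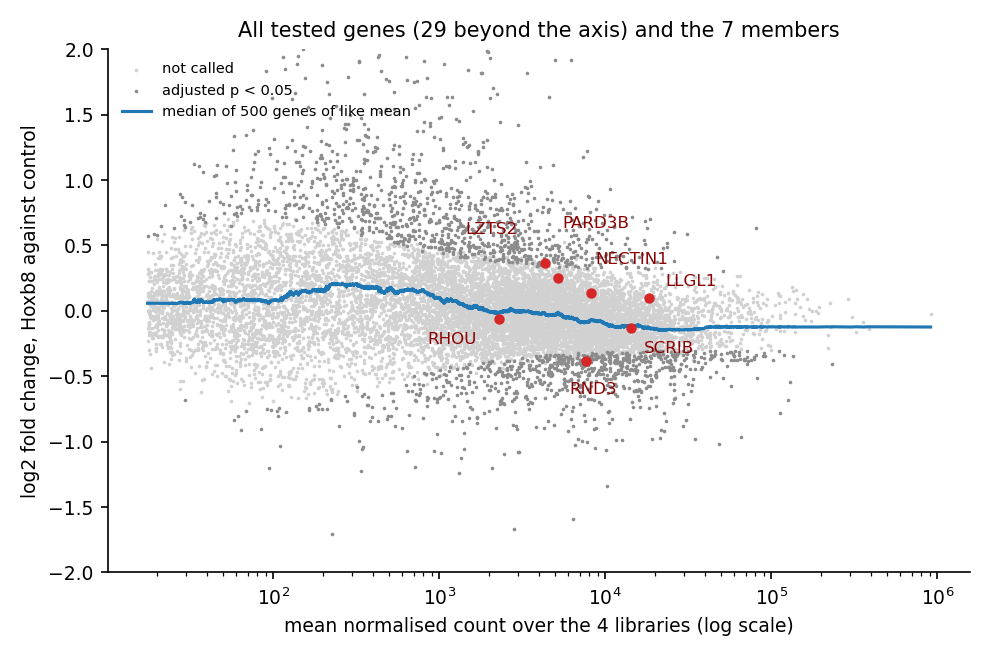
Log2 fold change in Hoxb8 against control (vertical) by mean normalised count over the 4 libraries (log axis) for the tested genes, called (dark) or not (light), with the median of 500 genes of like mean (blue) and the 7 members (red). The axis leaves out 29 genes beyond 2 in size; the blue line falls to -0.13 around LLGL1, and RND3 lies at the border of the called genes.

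The call on RND3 and the lack of one on LZTS2 both moved with the zero point of the comparison. The median log2 fold change of the 2002 tested genes with means over 10000 was -0.12. With that median set to 0, RND3 stood at -0.26 and was not called (adjusted p = 0.152), and LZTS2 and PARD3B were. The same shift turned the calls over all genes from 1097 higher and 816 lower to 1849 higher and 361 lower. The scores had a central spread of 1.69 over all tested genes. When scores were divided by it, 0 of the 7 passed, beside 312 of all 12574 tested genes. As deposited, 1 of 7 passed (15.2 percent of all tested genes) and 3 of 7 had an unadjusted p under 0.05 (26.7 percent of all tested genes).

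**Figure D4:**
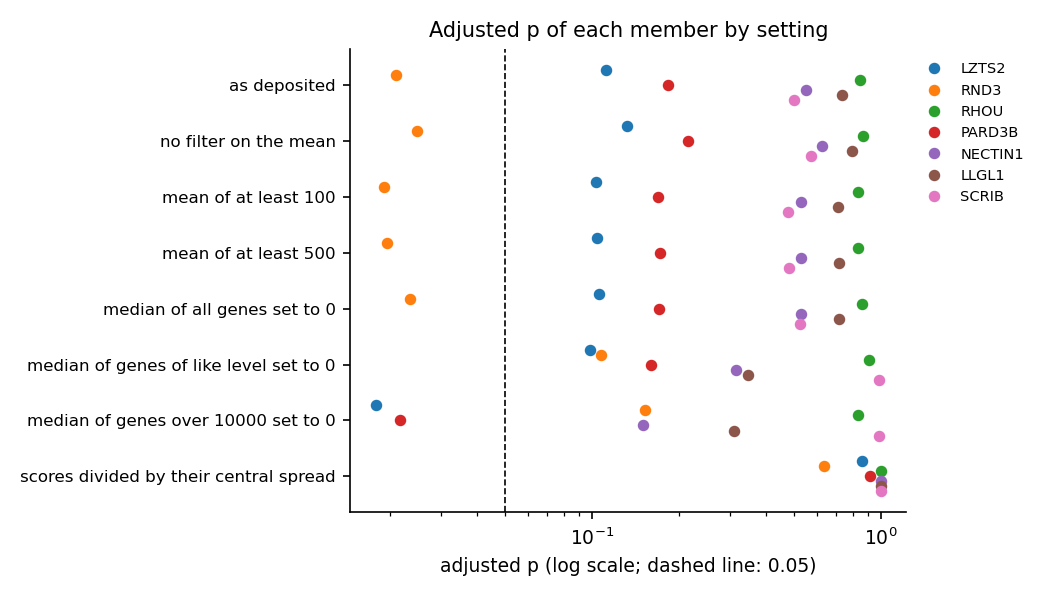
Adjusted p of each of the 7 genes (log axis, dashed line at 0.05) as deposited and under 7 other settings of filter, centring and scale. RND3 is left of the line in 5 of the 8 settings, and LZTS2 and PARD3B in 1 each, where genes over 10000 are centred.

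Other genes of the same machinery were few under a symbol. The 14 lists of GTPase, polarity, junction, actomyosin, EMT, planar polarity, basement membrane and centrosome genes held 237 distinct genes, of which 15 stood in the table by symbol and 13 were tested, the 7 members included. Of the other 6 genes 0 were called (15.2 percent of all tested genes were) and 2 had an unadjusted p under 0.05 (33.3 percent, against 26.7 percent of all tested genes). Their median log2 fold change was -0.11, against -0.0053 over all tested genes. Genes of like level had medians from -0.073 to -0.14 around all of them but RHOG (0.088), so -0.11 is not read as a fall. The genes with an unadjusted p under 0.05 in the authors' deposited table were MSN and PKN2. MSN, the actin-membrane linker moesin, stood at -0.27 ± 0.12 (adjusted p = 0.121), and PKN2, a serine/threonine kinase, at -0.27 ± 0.12 (adjusted p = 0.117). Centred on genes of like level, MSN stood at -0.13 (adjusted p = 0.578) and PKN2 at -0.17 (adjusted p = 0.423). The delta-catenin gene CTNND2 stood at 0.047 ± 0.11, the pericentrin gene PCNT at -0.10 ± 0.13, KIAA0586, the centrosomal gene of the chick talpid3 mutant, at -0.017 ± 0.13 and RHOG at -0.12 ± 0.26 on the log2 scale of the authors' deposited table. The last 3 of these changed sign with the median of genes over 10000 set to 0. RHOD and ARHGAP35, which encodes a GTPase-activating partner of RND3, were listed at 0. So were RPL17, RPL34 and RPS26, ribosomal protein genes that every cell uses, and a listing at 0 is therefore not read as absence of the transcript.

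A further 20 GTPase regulators, actin remodelling genes and cell contact genes were picked by symbol after the symbols in the table had been seen. Earlier results of these data were also known by then, so the shares below are no result about such genes as a group. Of the 17 tested, 2 rose and 0 fell (11.8 percent, against 15.2 percent of all tested genes), with a median log2 fold change of -0.0035. Both risers were cell surface adhesion genes in the authors' deposited table: PCDH8, a protocadherin, at 0.76 ± 0.13 (adjusted p = 3.66e-07), and IGSF3, an immunoglobulin superfamily gene, at 0.75 ± 0.13 (adjusted p = 9.09e-07). Their fold changes of 1.69 and 1.69 were larger than that of any of the 7 members, and both were called in every setting tried. At an unadjusted p under 0.05 the count was 8 of 17 (47.1 percent, against 26.7 percent of all tested genes), the 2 risers and 6 others. In the authors' deposited table the profilin gene PFN2 (-0.29 ± 0.12), the Arp2/3 subunit gene ARPC5L (-0.29 ± 0.13), FRMD4A, a scaffold that binds Par-3 (-0.27 ± 0.13), and MPP2 (-0.36 ± 0.17) were below 0, and PTPN3 (0.48 ± 0.22) and ARHGEF28 (0.32 ± 0.14) above. Some of these gained a call in another setting, MPP2 at -0.49 when centred on genes of like level, and ARHGEF28 at 0.45 and PTPN3 at 0.60 with the median of genes over 10000 set to 0.

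**Figure D5:**
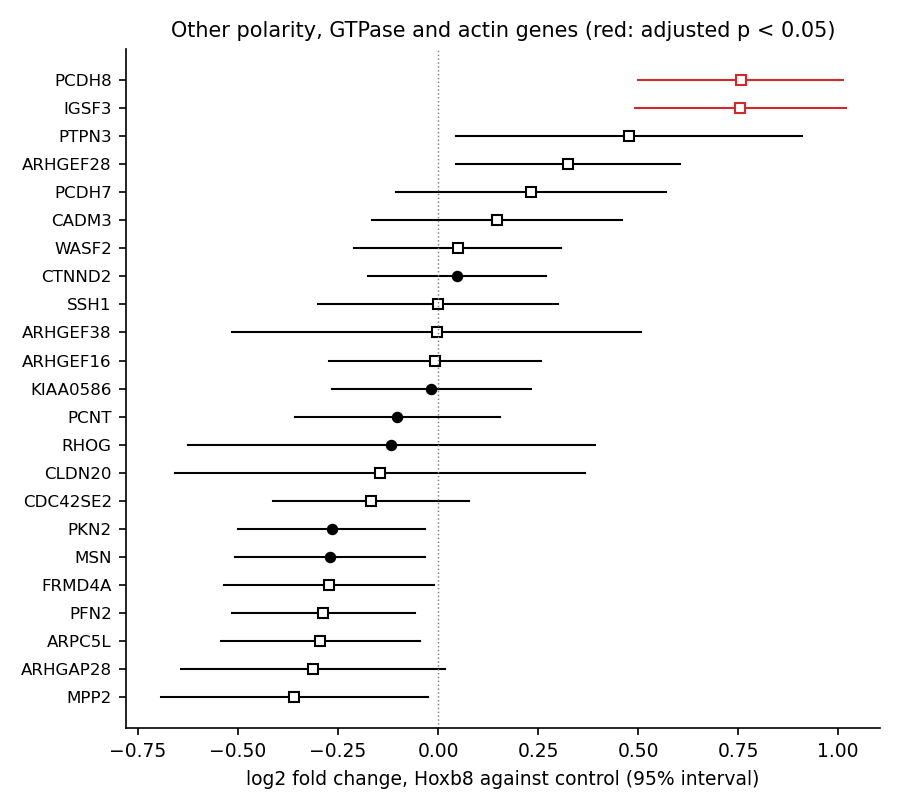
Log2 fold change in Hoxb8 against control with 95% intervals for 23 tested genes other than the members, from the lists fixed first (filled circles) and the added lists (open squares). PCDH8 and IGSF3 (red) are the called genes, at 0.76 and 0.75.

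Gene order and cell type markers gave little to set beside the members. In the reference gene order 2 of the 14 protein-coding neighbours of the 7 members stood in the table by symbol, C10orf2 beside LZTS2 at -0.13 ± 0.15 and ALKBH5 beside LLGL1 at -0.11 ± 0.12 on the log2 scale of the authors' deposited table (adjusted p = 0.616 for each). Of 11 neural progenitor markers 0 had a line by symbol, and of 22 genes of neuronal commitment and neurons only NEUROD4 had, at 0. These lists therefore gave no check of the tissue or its share of neurons. Neural genes outside the lists were not used for such a check. Of 11 neural crest markers PAX3, also a gene of dorsal progenitors, was tested, and in the authors' deposited table it fell by 0.82 ± 0.12 as a log2 fold change (adjusted p = 4.87e-10). Of 11 blood and endothelial markers 2 were tested, and the authors' deposited table gave LMO2 a rise of 1.48 ± 0.17 on the log2 scale (adjusted p = 4.50e-16) and PECAM1 a value of -0.028 ± 0.27. The mesoderm gene UNCX (-0.067 ± 0.25) and the surface ectoderm gene GRHL2 (-0.49 ± 0.26) had low means of 178 and 95.4 normalised counts there, and KRT8 was listed at 0. The part of other cell types in the values of RND3 and LZTS2 was not tested.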

How the data were processed

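Polyadenylated RNA of sorted cells was reverse transcribed and linearly amplified before library construction, per the labels' protocols. Per the submitters' processing notes, the build was galGal4 and the tools included featureCounts, Subread, DESeq2 and DESeq, with no version given. The deposited table is named for Ensembl release 85 on Galgal4. The strand setting of the counting is not given in the sources used here, so reads of overlapping, antisense or near-identical genes may be mixed.

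The deposited table holds 1 comparison, Hox against WT, with WT read as the pCIG control, the other group in the labels. Positive values are higher in Hoxb8, a direction taken from the table's title and not checked on HOXB8 itself. The deposited signal is the authors' mean over the 4 libraries of normalised counts. The deposited log2 fold changes and their standard errors give the Wald score when divided (largest deviation of the deposited score 9.24e-14). The deposited p-values follow from that score as two-sided normal p-values, and those adjusted by the authors match Benjamini-Hochberg adjustment across 12574 genes (largest deviation 1.89e-15). Summed over genes, the means came to 79237283 normalised counts. The deposited standard errors do not exceed 0.267. They were also small at very low means, at 0.12 and 0.15 for genes with means of 5.00 and 8.48. For LZTS2, at a mean of 4327, the standard error was 0.16. Counts that low do not give such precision over 4 libraries, so the fold changes are read as moderated toward 0. Changes of genes at low means are then understated, and the changes, intervals and implied levels of the members could be affected too. The size of the moderation was not tested, so the percent changes, intervals and implied levels are not read as estimates free of it.

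Computed here, with Python 3.11.15, numpy 2.4.6, pandas 2.3.3 and scipy 1.17.1, were 95% normal intervals, implied group levels (from the mean and the deposited fold change, so approximate), values of the 500 genes nearest in rank of mean, and adjusted p-values under other settings. Of these steps, centring on genes of like level and the Benjamini-Hochberg adjustment were tested on simulated data. The noise was drawn at the deposited standard errors, so the wider spread of the deposited scores was not simulated. Few genes were given a change, with rises and falls equally likely. The simulation therefore cannot show how centring acts where many calls are lower, as around RND3 (22 higher and 56 lower). The intervals, the implied levels and the remaining settings were not tested in this way. Symbols are those of the table (1432 of 17108 genes). Gene order came from RefSeq on GRCg7b, used for neighbours only. Named genes were the members, every tested gene of a list fixed first with up to 6, 3 genes nearest in log2 fold change to RND3 and to LZTS2, and the neighbours. Of the added lists, only genes with an unadjusted p under 0.05 were named. The members and lists were chosen with earlier results of these data known.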

Additional observations from a re-analysis of the deposited data

How the results depend on the processing

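Of 63 values of the 7 genes under 9 settings, 56 kept their direction and side of the threshold. Much of this was fixed in advance, so the count is no measure of robustness. The settings of filter, threshold and divided scores leave the log2 fold change as deposited, so direction could change only on centring. A gene not called as deposited could also gain no call at an adjusted p under 0.01 or with divided scores. RND3 lost its call at an adjusted p under 0.01 (-0.38), centred on genes of like level (-0.29), with the median of genes over 10000 set to 0 (-0.26) and with scores divided by their central spread (-0.38). With genes over 10000 at 0, LZTS2 (0.49) and PARD3B (0.37) gained a call and RHOU changed sign (0.063), by construction of a shift of 0.12. The count of called genes among the 7 was 0 at an adjusted p under 0.01, 0 centred on like level, 2 with genes over 10000 at 0 (LZTS2 and PARD3B), and 0 with divided scores, and it stayed at 1 with no filter on the mean, at means of at least 100 or 500, at an adjusted p under 0.1 and centred on all genes. The 1913 calls over all 12574 tested genes became 1184 at an adjusted p under 0.01 and 312 with divided scores. They became 1587 centred on like level, 2210 with genes over 10000 at 0, 2491 at an adjusted p under 0.1 and 1883 centred on all genes. Calls were 1796 of 14861 genes with no filter, and 1880 of 10966 and 1552 of 9178 at means of at least 100 and 500. With 7 genes, none of these counts is read as a result about them. Signs also changed in genes outside the 7 that were not called: centred on like level, KIAA0586 (0.056) and PCNT (0.021), and with genes over 10000 at 0, KIAA0586 (0.11), PCNT (0.023), ALKBH5 (0.016), RHOG (0.0082), PECAM1 (0.097) and UNCX (0.058). Outside the 7, MPP2 gained a call centred on like level (-0.49), ARHGEF28 (0.45) and PTPN3 (0.60) with genes over 10000 at 0, and PFN2 at an adjusted p under 0.1. Losses were more frequent. For 27 genes outside the 7, 10 of them called as deposited, 18 of 237 values lost a call and 4 gained one. CDV3, RRN3, PMS2, TSHZ3, CBX2 and PDE7A each lost theirs at an adjusted p under 0.01 and with divided scores (adjusted p from 0.624 to 0.727). CDV3, RRN3 and PMS2, like RND3, also lost theirs centred on like level and with genes over 10000 at 0. In the latter setting their adjusted p was 0.147, 0.188 and 0.185. TSHZ3, CBX2 and PDE7A kept theirs in both of these settings. No paired analysis was possible because each gene has 1 mean over the 4 libraries, and for the same reason no library was left out. Depth per library was not derived.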
